A study of Homo sapiens with 36 samples.

Results

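The genes described here carry out MHC class I antigen presentation. They were picked by symbol, as the rows of the count table for HLA-B, HLA-C, HLA-E, HLA-F, B2M, TAP1, TAP2, TAPBP and NLRC5, which makes 9 of the 60675 genes listed. All 9 symbols matched an Ensembl gene, and all 9 had an adjusted p-value in every comparison below.

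A class I molecule is a heavy chain bound to the light chain encoded by B2M and to a short peptide, and it shows peptides from inside the cell to CD8+ T cells. HLA-B and HLA-C are classical heavy chains, HLA-E is a heavy chain read by natural killer cell receptors, and HLA-F is a non-classical heavy chain. TAP1 and TAP2 form the transporter that moves peptides into the endoplasmic reticulum, TAPBP encodes tapasin, which bridges the transporter and the empty heavy chain, and NLRC5 is a transactivator of class I promoters. Interferons are known to raise most of these genes through STAT and IRF proteins.

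RNA was sequenced from 2 human cell lines, HT29 (colorectal adenocarcinoma) and SW1783 (astrocytoma), in 36 libraries that formed 12 groups of 3 replicates. For each line, batch A held cells given DMSO vehicle and cells given 10 µM wortmannin, a PI3K inhibitor used as the positive control. Batch B held its own DMSO vehicle group and 3 groups given a hot-water extract of the root of *Aconitum carmichaeli* Debeaux (ACD), named high (500 µg/mL), medium (100 µg/mL) and low (20 µg/mL). Exposure lasted 24 h in all 12 groups, and the study asked whether the extract acts more on a line of brain or of intestinal origin. HT29 was grown in DMEM and SW1783 in L-15, so that cell line and medium cannot be told apart, and each tissue is represented by 1 established line.

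Library totals ranged from 15941276 to 33866683 counts (median 22458954). HT29 expressed EPCAM (452 to 585 CPM, counts scaled by library total) and KRT20 (233 to 312 CPM). SW1783 expressed VIM (4076 to 4975 CPM), but the astrocyte genes GFAP and S100B stayed at or below 0.261 and 0.253 CPM. Of the leukocyte genes looked at, PTPRC was at most 0.126 CPM in HT29 and at 3.28 to 14.2 CPM in SW1783, LYZ was at 1176 to 2472 CPM in HT29, and CD3E was at most 0.0465 CPM in either line. Replicate 2 of the high dose in HT29 stood apart. A chi-square statistic of the counts per degree of freedom, near 1 for sampling noise alone, was 64.3 and 65.1 against replicates 1 and 3, which differed from each other by 9.33. Vehicles of batches A and B that carried the same number were closer, with 1.44 to 1.51 in HT29 and 1.51 to 1.61 in SW1783, than those with different numbers, with 3.74 to 16.1 in HT29 and up to 2.95 in SW1783, so the 2 vehicle groups of a line may not be independent. The labels do not say whether replicates were separate cultures, and p-values measure the spread between these libraries. Mitochondrial rRNA genes took a mean of 0.932% of counts in the batch B vehicle of SW1783 and 3.14%, 7.83% and 5.93% at the low, medium and high dose. In HT29 these means were 1.18%, 1.09%, 2.1% and 12%.

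The sequences just upstream of the genes are shown because the results below turn on groups of these genes that moved together. RefSeq held the 250 bases before the gene start for 7 of the 9 genes, on GRCh38.p14, and those of 5 are printed 5′ to 3′. In GENCODE annotation the gene bodies of TAP1, HLA-C and B2M begin inside the printed windows, and that of HLA-B covers its window. Capitals mark matches, on either strand, to 4 motifs known from class I promoters. These were the core of the interferon-stimulated response element (ISRE; GAAA, any 2 bases, GAAA), the core of the X2 box (TGACGC), the core of the Y box (CCAAT) and the kappaB motif, searched by its consensus. Adjacent capitals can be overlapping matches.

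TAP1 (chr6:32853705-32853954, minus strand): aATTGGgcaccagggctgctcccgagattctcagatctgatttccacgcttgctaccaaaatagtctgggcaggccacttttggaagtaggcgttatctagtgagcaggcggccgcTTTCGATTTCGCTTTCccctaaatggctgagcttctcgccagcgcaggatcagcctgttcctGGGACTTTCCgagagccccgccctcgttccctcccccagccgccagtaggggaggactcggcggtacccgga
TAP2 (chr6:32838740-32838989, minus strand): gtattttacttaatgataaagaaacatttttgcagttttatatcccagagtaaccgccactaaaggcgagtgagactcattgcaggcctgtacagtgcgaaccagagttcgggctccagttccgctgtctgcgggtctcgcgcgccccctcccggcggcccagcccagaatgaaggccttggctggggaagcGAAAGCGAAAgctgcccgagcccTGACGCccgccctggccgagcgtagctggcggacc
HLA-B (chr6:31357180-31357429, minus strand): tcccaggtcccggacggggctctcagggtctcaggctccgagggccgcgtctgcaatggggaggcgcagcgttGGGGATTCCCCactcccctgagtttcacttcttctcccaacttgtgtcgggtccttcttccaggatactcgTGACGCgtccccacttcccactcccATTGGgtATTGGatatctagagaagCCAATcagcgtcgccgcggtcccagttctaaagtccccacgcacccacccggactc
HLA-C (chr6:31272093-31272342, minus strand): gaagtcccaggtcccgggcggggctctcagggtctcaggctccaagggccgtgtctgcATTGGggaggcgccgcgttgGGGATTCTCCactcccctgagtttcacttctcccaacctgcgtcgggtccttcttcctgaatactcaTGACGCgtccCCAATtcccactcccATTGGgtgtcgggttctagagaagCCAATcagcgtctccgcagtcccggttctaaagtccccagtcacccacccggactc
B2M (chr15:44711267-44711516, plus strand): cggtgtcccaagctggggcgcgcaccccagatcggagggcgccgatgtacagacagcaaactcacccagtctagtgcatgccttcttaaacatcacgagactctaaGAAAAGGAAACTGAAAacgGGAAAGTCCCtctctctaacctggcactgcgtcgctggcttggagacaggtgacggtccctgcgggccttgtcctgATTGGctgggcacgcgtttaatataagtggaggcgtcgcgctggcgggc

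RefSeq also held another TAP1 window, at chr6:32852762-32853011 on the minus strand. It matched none of these motifs and is not printed, and matches named for TAP1 are those of the printed window. The ISRE core was found upstream of TAP1, TAP2, B2M, HLA-F and TAPBP, with overlapping copies in TAP1, B2M and TAPBP. It was present in 3.021% of 35116 RefSeq promoter windows of the same length. The X2 box core was found upstream of HLA-B, HLA-C and TAP2 and in 7.669% of all windows. The kappaB motif was found upstream of HLA-B, HLA-C, TAP1, TAPBP and B2M and in 9.961% of windows. The Y box core, upstream of HLA-B, HLA-C, HLA-F, TAP1 and B2M, is common, with a match in 32.01% of windows. A match describes the letters of the window only. The search took exact matches to each pattern, so a window without a match to the ISRE core, such as that of HLA-B or HLA-C, can still hold a variant of it.

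Of the 9 genes, 7 lie in the MHC region of chromosome 6, between the start of HLA-F at 29722775 and the end of TAPBP at 33314284 (GENCODE v44, GRCh38). B2M lies on chromosome 15 (44711358 to 44718851) and NLRC5 on chromosome 16 (56989485 to 57083531). All 9 are protein-coding. TAP1 shares its promoter region with PSMB9, an immunoproteasome gene that starts in the opposite direction.

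In untreated cells, the class I genes were read far more in SW1783 than in HT29. With vehicle alone, all 9 genes were higher in SW1783 in both batches at an adjusted p-value under 0.05 and more than 1.5-fold, the rule for a differentially expressed gene (DEG). This rule called 27.2% of the genes tested higher in batch B and 27.8% in batch A. HLA-B differed most. Its normalized counts (read counts scaled to a common depth, fitted within each line) were 97.0, 82.8 and 85.6 in the batch A vehicle of HT29 and 8069, 8134 and 8276 in that of SW1783. In the fit that compares the lines, the log2 difference was 6.45 ± 0.10 (standard error, SE) in batch A, an 87.2-fold difference, and 6.37 ± 0.26 or 82.7-fold in batch B. NLRC5, the transactivator, was 40.7-fold higher in batch A (log2 5.35 ± 0.24) and 32.6-fold higher in batch B (5.03 ± 0.22). It had only 11 to 26 raw counts per vehicle library of HT29.

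The remaining genes differed by less. HLA-F was 14.1-fold and 14.7-fold higher in SW1783 in batches A and B, HLA-C 8.58-fold and 8.34-fold, and TAP1 7.12-fold and 7.82-fold. HLA-E was 3.67-fold and 3.61-fold higher and TAP2 2.73-fold and 2.64-fold. B2M was 1.92-fold and 1.88-fold higher. TAPBP was closest to the threshold at 1.54-fold and 1.52-fold, and in batch B it lay below 1.5-fold with edgeR or with TMM size factors, which left 8 DEGs. In bulk RNA, fewer cells that express a gene and less of its RNA per cell cannot be told apart.

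The order of the genes also differed between the lines. On a scale of normalized counts per kilobase of transcript over all 36 libraries, B2M was the most abundant in both lines. In HT29 vehicles of batch A it stood at 8342 ± 562.4 (SD, n = 3), followed by TAPBP at 1182 ± 29.5, HLA-C at 679.5 ± 100.1, HLA-E at 512.6 ± 21.7, TAP2 at 204.2 ± 6.39, TAP1 at 89.0 ± 13.4, HLA-B at 57.8 ± 4.50, HLA-F at 22.2 ± 2.22 and NLRC5 at 2.31 ± 1.13. In SW1783 vehicles of batch A the order was B2M at 16004 ± 158, HLA-C at 5811 ± 78.1, HLA-B at 4982 ± 62.3, HLA-E at 1880.18 ± 48.5, TAPBP at 1822 ± 56.7, TAP1 at 628.2 ± 10.8, TAP2 at 556.2 ± 28.4, HLA-F at 317.3 ± 15.8 and NLRC5 at 88.9 ± 0.727. HLA-B thus ranked 3 in SW1783 and 7 in HT29. Neighbours in the order were separated in every vehicle group except TAP1 and HLA-B in batch B of HT29 and HLA-E and TAPBP in batch A of SW1783, whose ranges overlapped. The light chain was present at 6.56 and 6.38 times the summed level of the 4 heavy chains in HT29 vehicles of batches A and B, and at 1.23 and 1.22 times in SW1783 vehicles.

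**Figure D1:**
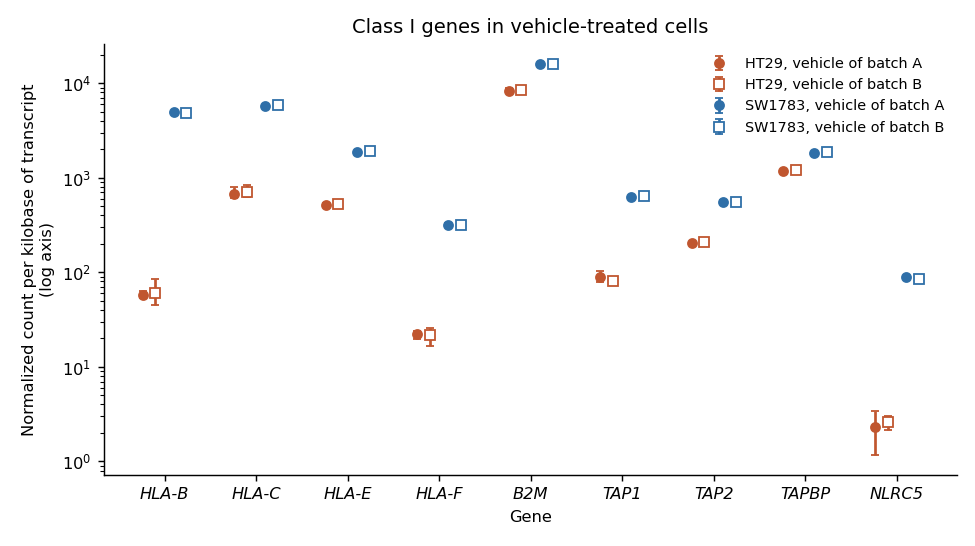
Level of the 9 class I genes in vehicle-treated HT29 and SW1783, as normalized counts per kilobase of transcript on a log axis, with the mean of 3 libraries as the marker and the lowest and highest library as the bar, for batches A and B. The gap between the lines is widest for HLA-B, which sits at 57.8 in HT29 and 4982 in SW1783 in batch A, and narrowest for TAPBP, at 1182 and 1822.

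HLA levels depend on how well the alleles of a line match the reference, and reads shared between HLA genes are divided by a model. The count of HLA-B was not a whole number in 17 of 18 libraries of each line. The sum of HLA-B and HLA-C was whole in 14 of 18 libraries of HT29 and in 1 of 18 of SW1783 (within 0.015). For TAP2, 34.7% of the 100-base stretches of its transcript also occur in ENSG00000250264, an overlapping readthrough gene on the same strand, so its counts are uncertain. Counts were also not whole in 34 of 36 libraries for TAP1, 35 for HLA-C, 30 for TAP2, 25 for HLA-F and 3 for HLA-E. No library had such a count for B2M, TAPBP or NLRC5. The part of allele match in the difference between the lines was not tested.

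Wortmannin raised class I genes in HT29. By the DEG rule 2 of the 9 genes rose, NLRC5 and TAP1, where 2.74% of all genes tested were DEGs in either direction. At an adjusted p-value under 0.05 and any size, 6 of the 9 rose and none fell, where 8.05% of genes tested rose. The median log2 fold change of the 9 was 0.40, and that of all genes tested was -0.01.

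NLRC5 changed most. The 3 vehicle libraries held 15.96, 7.85 and 22.9 normalized counts, and those given wortmannin held 56.6, 51.4 and 77.1. The groups did not overlap, although the raw counts were small, 13, 11 and 23 against 53, 58 and 65. The log2 fold change was 2.02 ± 0.40, or 4.05-fold, with an adjusted p of 1.47e-05 and a 95% interval from 1.23 to 2.80.

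TAP1, the transporter subunit, stood at 281.1, 224.7 and 209.1 in vehicle and at 397.0, 385.2 and 429.6 with wortmannin. Every wortmannin library lay above every vehicle library. The rise was 0.77 ± 0.14 on the log2 scale, 1.70-fold (adjusted p = 6.3e-07). Its partner TAP2 went from 1200.5, 1124 and 1121 to 1592, 1478 and 1622, a log2 rise of 0.45 ± 0.07 (adjusted p = 7.37e-08), below 1.5-fold. TAPBP rose by 0.25 ± 0.06 on the same scale (adjusted p = 0.000211), from 3992, 4074 and 4125 to 4805, 4633 and 5031. All 3 loading genes therefore rose in this comparison.

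Among the heavy chains, HLA-E stood at 1377, 1274 and 1255 in vehicle and at 1608, 1542 and 1612 with wortmannin. This was a log2 rise of 0.29 ± 0.07 (adjusted p = 0.000712). HLA-C rose by 0.33 ± 0.10 (adjusted p = 0.0114), with 1231, 975.3 and 928.8 in vehicle and 1314, 1322 and 1295 with wortmannin. Its vehicle libraries were spread more widely than its wortmannin libraries, and the call was lost without any of vehicle replicates 2 and 3 or wortmannin replicates 1, 2 and 3 (adjusted p between 0.0726 and 0.118).

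HLA-B and HLA-F had the lowest counts of the heavy chains in HT29 and did not pass the test. HLA-F stood at 29.5, 35.7 and 32.9 in vehicle and at 49.1, 55.8 and 57.0 with wortmannin, without overlap (log2 fold change 0.71 ± 0.29, adjusted p = 0.0685). HLA-B stood at 97.0, 82.8 and 85.6 against 119.5, 96.5 and 132.9, with overlap (0.40 ± 0.21, adjusted p = 0.177). Both passed with edgeR, at adjusted p-values of 0.00777 and 0.038. B2M was at 8521, 7466 and 7540 in vehicle and at 8138, 8241 and 8344 with wortmannin (0.07 ± 0.06, adjusted p = 0.481), with a 95% interval from -0.05 to 0.20. Without vehicle replicate 1, the highest of its group, B2M passed at 0.14 (adjusted p = 0.000757). The light chain stood at 5.51 times the summed heavy chains with wortmannin, against 6.56 times in vehicle.

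In SW1783, wortmannin moved the heavy chains and the transporter in opposite directions, all by less than 1.5-fold. None of the 9 genes was a DEG, where 2.71% of genes tested were. At any size 5 rose (HLA-B, HLA-C, HLA-E, B2M and TAPBP) and 2 fell (TAP1 and TAP2), where 13.2% of genes tested rose and 19.2% fell. The median log2 fold change of the 9 was 0.12 against 0.00 over all genes tested.

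TAP2 fell most, from 3538, 3246 and 3254 in vehicle to 2504, 2577 and 2464 with wortmannin. The 2 groups lay well apart, and the log2 fold change was -0.41 ± 0.04, 1.33-fold lower (adjusted p = 1.28e-20). TAP1 stood at 1783, 1778 and 1833 in vehicle and at 1510.5, 1517 and 1526 with wortmannin, a change of -0.24 ± 0.05 or 1.18-fold lower (adjusted p = 4.6e-06). These are the transporter subunits that rose in HT29.

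HLA-C rose from 9532, 9698 and 9428 to 11206, 11059 and 11462 (log2 fold change 0.23 ± 0.02, adjusted p = 5.52e-21). HLA-B rose from 8069, 8134 and 8276 to 9138, 9064 and 9363 (0.17 ± 0.03, adjusted p = 1.17e-10), and B2M from 16070, 16271 and 15930 to 17750, 18092 and 18330 (0.17 ± 0.02, adjusted p = 1.07e-14). The replicates of these abundant genes agreed so closely that rises of 1.12-fold to 1.18-fold stood clear of their spread. HLA-E and TAPBP rose by 0.12 ± 0.03 and 0.11 ± 0.03 (adjusted p = 0.000349 and 0.000898). HLA-F (0.07 ± 0.09, adjusted p = 0.59) and NLRC5 (0.12 ± 0.08, adjusted p = 0.271) did not pass, and NLRC5 stood at 636.0, 645.9 and 647.0 in vehicle and 681.7, 658.8 and 749.7 with wortmannin. Its 95% interval reached from -0.04 to 0.27 on the log2 scale.

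**Figure D2:**
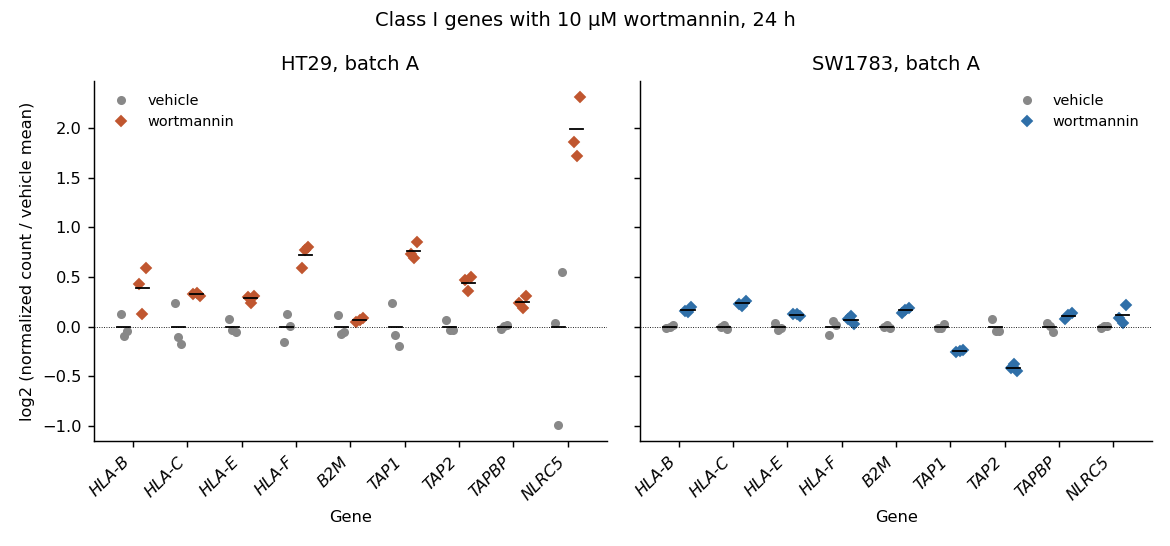
Log2 ratio of each library's normalized count to the mean of the 3 vehicle libraries, for the 9 class I genes in HT29 and SW1783 of batch A, with grey circles for vehicle, diamonds for wortmannin and a black line for the mean of each group. In HT29 the wortmannin libraries of NLRC5 stand highest, followed by those of TAP1 and HLA-F, which overlap each other. The fitted log2 fold changes of NLRC5 and TAP1 are 2.02 and 0.77. In SW1783 the wortmannin libraries of TAP1 and TAP2 lie below vehicle, at -0.24 and -0.41.

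The responses of the lines to wortmannin were compared directly, as an interaction of cell line and treatment. This fit took a shared spread per gene from both lines. An SE can therefore be too small where HT29 counts were low, as for NLRC5 and HLA-F. Of the 9 genes 4 responded lower in SW1783 than in HT29 by the DEG rule, where 2.54% of genes tested did, and 6 did so at any size, where 9.96% of genes tested did. The differences in log2 response (SW1783 minus HT29) of these 4 were -1.95 ± 0.27 for NLRC5 (adjusted p = 6.55e-11), -1.04 ± 0.10 for TAP1 (6.63e-21), -0.88 ± 0.08 for TAP2 (7.25e-28) and -0.65 ± 0.22 for HLA-F (0.0211). NLRC5, TAP1 and TAP2 passed in all 17 alternatives with an adjusted p-value. HLA-F lost its call with the replicate block and without HT29 wortmannin replicate 2 or 3, SW1783 vehicle replicate 2 or SW1783 wortmannin replicate 3 (adjusted p between 0.0556 and 0.0737 for these 4 libraries). HLA-E (-0.19 ± 0.06, 0.0117) and TAPBP (-0.16 ± 0.06, 0.0347) passed at a small size and lost their call with edgeR (adjusted p = 0.226 and 0.371). HLA-E lost it also without HT29 vehicle replicate 2, HT29 wortmannin replicate 1, SW1783 vehicle replicate 1 or SW1783 wortmannin replicate 3 (adjusted p between 0.0554 and 0.0638), and TAPBP in 8 of 12 fits with a library left out (adjusted p between 0.0676 and 0.139). HLA-B, HLA-C and B2M did not pass, with differences of -0.24 ± 0.13, -0.12 ± 0.10 and 0.07 ± 0.06. Without HT29 vehicle replicate 1, HLA-C passed at -0.24 (adjusted p = 4.1e-05).

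The extract raised 7 of the 9 genes in SW1783 at the high dose, each by less than 1.5-fold. The 7 were HLA-B, HLA-C, HLA-E, HLA-F, B2M, TAP1 and TAP2, and they passed in all 12 alternatives. In this comparison 23.1% of genes tested rose at any size and 17.6% were DEGs in either direction, so changes of genes were common at this dose. The median log2 fold change of the 9 was 0.34, against -0.01 over all genes tested.

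HLA-B rose most. Its normalized counts were 6834, 6847 and 6915 in vehicle, 7299, 6533 and 6632 at the low dose, 7740, 7621 and 7503 at the medium dose and 9390, 10286 and 9448 at the high dose. The low dose overlapped vehicle, and the medium and high doses each lay above all lower groups. Its rise at the high dose was 0.50 ± 0.04 on the log2 scale, 1.41-fold (adjusted p = 2.15e-35).

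B2M stood at 13723, 13720 and 13698 in vehicle, 14453, 14389 and 15349 at the low dose, 15247, 15551 and 15729 at the medium dose and 16897, 18072 and 17702 at the high dose. Every dose lay above vehicle, and the high dose above all others. The rise at the high dose was 0.36 ± 0.03 on the log2 scale, 1.28-fold (adjusted p = 5.96e-34).

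HLA-C went from 8361, 8312 and 8382 in vehicle through 9185, 9462 and 8946 at the medium dose to 10479, 10876 and 10551 at the high dose (0.35 ± 0.03, adjusted p = 6.27e-35). HLA-E stood at 4520, 4425 and 4533 in vehicle, 4878, 4745 and 4252 at the medium dose and 5635, 5722 and 5853 at the high dose (0.35 ± 0.04, adjusted p = 3.34e-16). For HLA-E the medium dose overlapped vehicle, and the high dose stood above every other group. HLA-F, the least abundant heavy chain, rose from 397.6, 437.2 and 459.0 to 556.8, 551.3 and 535.0 (0.34 ± 0.09, adjusted p = 0.000261).

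The transporter subunits also rose at the high dose. TAP1 stood at 1543, 1588 and 1566 in vehicle, 1619, 1681 and 1663 at the medium dose and 1962, 1915 and 1936 at the high dose (0.31 ± 0.05, adjusted p = 7.38e-11). TAP2 stood at 2854, 2858 and 2845, then 3068, 3130 and 3081, then 3415, 3301 and 3303 (0.23 ± 0.04, adjusted p = 8.62e-10). With wortmannin, set against the vehicle of batch A, both had fallen in this line.

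TAPBP and NLRC5 did not pass at the high dose. TAPBP stood at 5893, 5774 and 5882 in vehicle and at 6182, 5847 and 6006 at the high dose (0.04 ± 0.03, adjusted p = 0.305, 95% interval from -0.02 to 0.10). NLRC5 stood at 520.5, 541.4 and 527.7 in vehicle and at 482.7, 491.9 and 494.8 at the high dose (-0.11 ± 0.08, adjusted p = 0.252, 95% interval from -0.27 to 0.04). The transactivator thus lay lower at the high dose, without overlap and without passing the test.

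At the medium dose 4 genes rose, where 15% of genes tested did and 3.82% were DEGs. They were B2M (0.18 ± 0.03, adjusted p = 1.47e-08), HLA-B (0.15 ± 0.04, 0.00107), HLA-C (0.14 ± 0.03, 7.48e-06) and TAP2 (0.12 ± 0.04, 0.00529). TAP2 was lost without medium-dose replicate 2 (adjusted p = 0.0521), and HLA-E passed without medium-dose replicate 3 (0.10, adjusted p = 0.0452). At the low dose B2M alone passed, at 0.10 ± 0.03 (adjusted p = 0.0164), where 2.05% of genes tested rose and 0.118% were DEGs. That call was lost without vehicle replicate 1, 2 or 3 or low-dose replicate 3 (adjusted p between 0.0625 and 0.194).

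Dose steps were tested by their own contrasts. From the medium to the high dose 6 of the 9 genes rose, where 20.2% of genes tested did, and none was a DEG. HLA-B rose by 0.35 ± 0.04 on the log2 scale (adjusted p = 1.35e-17), HLA-E by 0.31 ± 0.04, TAP1 by 0.23 ± 0.05, HLA-C by 0.21 ± 0.03, B2M by 0.18 ± 0.03 and TAP2 by 0.11 ± 0.04. TAP2 lost its call without high-dose replicate 1 (adjusted p = 0.0587), and HLA-F missed it (0.20 ± 0.09, adjusted p = 0.0526) but passed with edgeR (0.00916) and with the low-count filter (0.0351). From the low to the medium dose HLA-B (0.16 ± 0.04, adjusted p = 0.000783) and HLA-C (0.12 ± 0.03, adjusted p = 0.000133) rose, where 9.26% of genes tested did. B2M just missed at this step (0.07 ± 0.03, adjusted p = 0.0518) and passed without medium-dose replicate 1 (0.0495) or low-dose replicate 3 (0.00308), and HLA-E passed without medium-dose replicate 3 (0.0217).

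Other values moved with dose in SW1783. The share of mitochondrial rRNA, given above, was highest at the medium dose and not at the high dose, and with mitochondrial genes left out the same 7 genes passed at the high dose. The summed level of 8 leukocyte markers lay between 13.0 and 14.5 CPM in vehicle and between 3.45 and 5.12 CPM at the high dose, most of it from PTPRC, with CD3E and NKG7 at 0 in all 18 libraries. The summed level of 7 astrocytoma or mesenchymal markers lay between 18000 and 18270 CPM in vehicle and between 13100 and 13310 CPM at the high dose. Their part in the results was not tested.

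**Figure D3:**
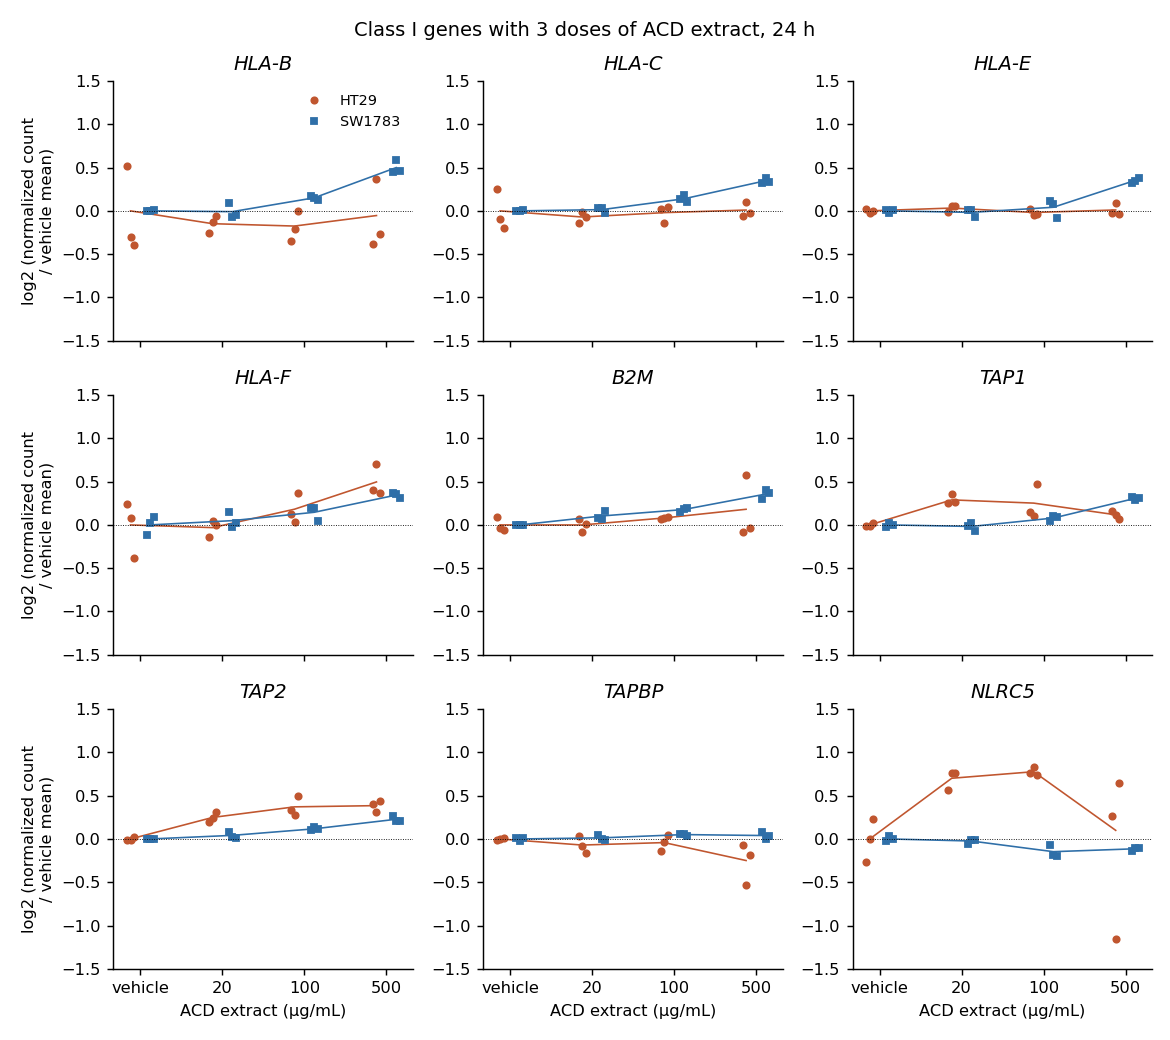
Log2 ratio of each library's normalized count to the mean of the batch B vehicle of its line, plotted against the dose of ACD (vehicle, 20, 100 and 500 µg/mL), in a panel for each of the 9 class I genes, with circles for HT29, squares for SW1783 and lines through the group means. In SW1783 the 7 genes that rose stand highest at 500 µg/mL, and in HT29 TAP2 stands above vehicle at each dose while B2M and HLA-B have a library of the high dose far from the other 2.

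In HT29 TAP2 was the only gene of the 9 to pass the test with the extract. At the high dose 1 of the 9 rose at any size, where 4.55% of genes tested did, and none was a DEG, where 3.16% were. At the medium dose 1 of the 9 rose, where 1.1% of genes tested did and 0.792% were DEGs. At the low dose none passed, where 0.551% of genes tested passed in either direction and 0.287% were DEGs. TAP1, TAP2 and NLRC5 had an unadjusted p under 0.05 at the low dose in DESeq2. The shares above are for adjusted p, and the share of all genes at the unadjusted threshold was not taken, so nothing is concluded from these genes. With edgeR none of the 9 passed after adjustment.

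TAP2 stood at 1274, 1269 and 1297 in vehicle, 1464, 1515 and 1582 at the low dose, 1615, 1547 and 1803 at the medium dose and 1687.5, 1593 and 1733 at the high dose. All 9 treated libraries lay above the vehicle libraries, and the medium and high doses overlapped. The log2 fold change was 0.39 ± 0.07 at the high dose (1.31-fold, adjusted p = 1.14e-05), 0.37 ± 0.07 at the medium dose (adjusted p = 0.000118) and 0.25 ± 0.07 at the low dose, which did not pass (adjusted p = 0.0975). Without high-dose replicate 2, the library that stood apart, the value at the high dose was 0.42 (adjusted p = 1.21e-06). The high dose passed in all 12 alternatives, which include leaving out mitochondrial genes. With edgeR the adjusted p was 0.0199 at the high dose and 0.0561 at the medium dose.

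TAP1 stood at 235.6, 234.9 and 240.5 in vehicle and at 281.4, 303.1 and 284.3 at the low dose, 262.9, 254.4 and 329.4 at the medium dose and 265.2, 256.4 and 249.4 at the high dose. The dosed libraries lay above vehicle without passing the test (log2 fold change 0.29 ± 0.12, 0.25 ± 0.12 and 0.12 ± 0.12, adjusted p = 0.475, 0.426 and 0.687). NLRC5 stood at 15.9, 19.0 and 22.3 in vehicle, 28.2, 32.4 and 32.4 at the low dose, 32.3, 33.97 and 31.8 at the medium dose and 22.9, 8.55 and 29.9 at the high dose. Its low and medium doses did not overlap vehicle, but with 12 to 43 raw counts per library in these 3 groups the changes (0.69 ± 0.35 and 0.77 ± 0.35) did not pass (adjusted p = 0.706 and 0.362). At the high dose replicate 2 had 5 raw counts of NLRC5.

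The same library set the spread of other genes at the high dose. B2M stood at 9219, 8426 and 8267 in vehicle and at 8137, 12838 and 8395 at the high dose. HLA-B stood at 141.7, 80.5 and 75.5 in vehicle and at 76.4, 128.2 and 82.1 at the high dose. TAPBP stood at 4528, 4572 and 4596 in vehicle and at 4339, 3161 and 4023 at the high dose. Replicate 2 was thus the highest of its group for B2M and HLA-B and the lowest for TAPBP. The fitted value of B2M was 0.18 ± 0.15 with it and -0.06 without it, and neither passed (adjusted p = 0.574 and 0.523). TAPBP was at -0.25 ± 0.11 (adjusted p = 0.169), at -0.13 without replicate 2 (adjusted p = 0.206) and at -0.34 without replicate 1, where it passed (adjusted p = 0.0368).

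HLA-F stood at 41.0, 36.6 and 26.6 in vehicle and at 45.8, 56.4 and 44.8 at the high dose, without overlap (0.48 ± 0.26, adjusted p = 0.295). HLA-C and HLA-E were at 0.01 and 0.01 on the log2 scale at the high dose, with 95% intervals from -0.22 to 0.24 and from -0.11 to 0.12. No gene of the 9 differed between the high and medium doses, where 1.7% of genes tested did in either direction, or between the medium and low doses, where 0.434% did. At an unadjusted p under 0.05, 0 of the 9 passed in either step, with no share of all genes at that threshold to set beside it. With edgeR none passed at an adjusted p under 0.05.

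The responses of the lines to the extract were compared in the same way, with the same limit for genes of low HT29 counts such as HLA-B. At the high dose 4 of the 9 passed the interaction test at any size and none by the DEG rule, where 27.6% and 14.6% of genes tested did. HLA-B responded higher in SW1783 by 0.53 ± 0.18 on the log2 scale (adjusted p = 0.0127), HLA-C by 0.30 ± 0.11 (0.0246) and HLA-E by 0.31 ± 0.07 (9.9e-05), while TAP2 responded lower, by -0.21 ± 0.07 (0.0133). The HLA-B and HLA-C differences passed without HT29 high-dose replicate 2, at 0.70 and 0.34, but neither passed with only the compared groups fitted (adjusted p = 0.182 and 0.113) or with the replicate block (0.06 and 0.0504). HLA-B lost its call also without HT29 vehicle replicate 1 (adjusted p = 0.283), whose 141.7 normalized counts stood above the 80.5 and 75.5 of the others, and without HT29 high-dose replicate 1 or 3 (0.0802 and 0.0848). HLA-C lost its call without these 3 libraries or without SW1783 vehicle or high-dose replicate 2 (adjusted p between 0.0532 and 0.08). HLA-C, HLA-E and TAP2 did not pass with edgeR (adjusted p = 0.0734, 0.0673 and 0.32), and TAP2 was lost without HT29 high-dose replicate 3 (adjusted p = 0.0576). TAPBP passed without HT29 high-dose replicate 1, at 0.34 (adjusted p = 0.00495), against 0.24 ± 0.11 with it (adjusted p = 0.097). B2M passed only without HT29 high-dose replicate 2, at 0.37 (adjusted p = 1.1e-08) against 0.14 ± 0.15 with it (adjusted p = 0.588).

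At the medium dose NLRC5 responded lower in SW1783, by -0.94 ± 0.25 (adjusted p = 0.00349), and passed the DEG rule, where 3.43% of genes tested did. Its SE lay below the 0.35 of HT29 alone, since the fit took a shared spread per gene from both lines. The p-value may therefore be too small for this gene, whose HT29 counts were low. TAP2 also responded lower, by -0.28 ± 0.07 (adjusted p = 0.00158), where 11% of genes tested passed at any size, but it did not pass with edgeR (adjusted p = 0.25). At the low dose TAP1 responded lower by -0.33 ± 0.09 at the edge of the threshold (adjusted p = 0.048), where 0.927% of genes tested passed at any size and 0.266% were DEGs. Leaving out a replicate ended that call in 10 of 12 cases, with HT29 vehicle replicate 3 and SW1783 low-dose replicate 2 as the exceptions. TAP2 passed at this dose without HT29 low-dose replicate 1, at -0.26 (adjusted p = 0.045), against -0.23 ± 0.07 with it (adjusted p = 0.076).

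The other genes of the pathway give the setting of these changes. Under wortmannin in HT29, 17 of 17 interferon-stimulated genes rose as DEGs, with a median log2 fold change of 1.88. In this comparison 2.74% of genes tested were DEGs in either direction. IFI44L went from 27.3 ± 5.30 to 355.6 ± 43.0 normalized counts (SD, n = 3), a rise of 3.74 ± 0.22 (adjusted p = 5.9e-63). XAF1 went from 24.8 ± 10.6 to 208.1 ± 18.6 (3.11 ± 0.25, adjusted p = 4.95e-32). Of 13 genes of interferon receptors and STAT signalling 4 rose as DEGs. They included IRF9, a subunit of the interferon-activated transcription factor complex, from 327.3 ± 52.2 to 761.3 ± 55.6 (1.23 ± 0.13, adjusted p = 3.34e-20). IRF1, another activator of class I genes, was at 727.4 ± 41.97 and 772.7 ± 24.2 and did not pass (0.09 ± 0.09, adjusted p = 0.527).

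In the same comparison 2 of 5 immunoproteasome and activator genes rose as DEGs. PSMB8, a catalytic subunit that shapes peptides for class I, rose from 214.5 ± 33.2 to 331.5 ± 24.1 (0.64 ± 0.14, adjusted p = 0.00017). PSMB9, which shares its promoter region with TAP1, rose from 17.5 to 43.4 normalized counts on average (1.32 ± 0.37, adjusted p = 0.0038), and is named after its values were seen because of its low counts. All 3 constitutive catalytic proteasome subunits fell, by less than 1.5-fold, where 11.6% of genes tested fell at any size and 8.05% rose. Of 7 peptide trimming genes 2 rose, of 4 genes of folding in the endoplasmic reticulum 1 rose and 2 fell, of 14 class I gene regulators 1 fell, and none of 8 class I-like and other heavy chain genes passed. The summed leukocyte markers lay between 1747 and 1881 CPM in vehicle and between 2418 and 2479 CPM with wortmannin, nearly all from LYZ, while PTPRC was at most 0.126 CPM in HT29. The part of these markers in the results was not tested.

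Under wortmannin in SW1783 the same lists moved little. In this comparison 13.2% of genes tested rose and 19.2% fell at any size, and 2.71% were DEGs. Of the 17 interferon-stimulated genes 1 rose and 4 fell, none as a DEG. In the interaction 15 of the 17 responded lower in SW1783 by the DEG rule, where 2.54% of genes tested did. Of the 13 interferon signalling genes 4 rose and 2 fell, with SOCS1 the only DEG, at -0.73 (adjusted p = 0.0359), named after its values were seen. Of the immunoproteasome genes 2 of 5 fell, and all 3 constitutive subunits fell, as in HT29. Of the 8 class I-like and other heavy chain genes 3 rose, of the trimming genes 2 of 7 fell, of the folding genes 1 rose and 2 fell, and of the regulators 1 of 14 fell.

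At the high dose of the extract in SW1783 the lists were mixed. At any size 23.1% of genes tested rose and 21.8% fell in this comparison. Of 14 class I gene regulators 5 rose and 4 fell. IRF1 rose from 534.8 ± 22.0 to 1270 ± 29.5 normalized counts (1.25 ± 0.07, adjusted p = 8.75e-75), and CIITA, the transactivator of MHC class II genes, fell from 244.5 ± 15.4 to 107.4 ± 11.8 (-1.18 ± 0.14, adjusted p = 1.37e-15). Of the interferon signalling genes 4 rose and 3 fell. STAT2 rose from 703.9 ± 58.6 to 1457 ± 34.6 (1.05 ± 0.06, adjusted p = 8.14e-60) and JAK2 from 630.6 ± 21.3 to 1016 ± 43.6 (0.69 ± 0.07, adjusted p = 4.74e-22).

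Of the interferon-stimulated genes 5 rose and 5 fell at this dose, with a median of 0.01. IFIT2 rose from 146.1 ± 13.9 to 414.1 ± 49.9 (1.50 ± 0.13, adjusted p = 3.09e-30), and GBP2 fell from 188.8 ± 26.5 to 100.3 ± 10.8 (-0.91 ± 0.16, adjusted p = 6.32e-08). Of the folding genes 3 of 4 rose, including CALR, the chaperone calreticulin of the loading complex, from 33006 ± 771 to 50963 ± 862 (0.63 ± 0.02, adjusted p = 7.21e-202). Of the 8 class I-like and other heavy chain genes 3 rose and 2 fell. The 2 that fell were HFE, a regulator of iron uptake (-0.76 ± 0.08, adjusted p = 6.93e-21), and MR1, which presents microbial metabolites (-0.70 ± 0.09, adjusted p = 2.26e-14). Of the immunoproteasome genes 2 of 5 rose, of the constitutive subunits 2 of 3 fell, and of the trimming genes 2 rose and 2 fell. In HT29 at the high dose IFNGR1, a subunit of the interferon gamma receptor, was the only DEG of these lists besides an MHC class II gene, where 3.16% of genes tested were DEGs. It stood at 1452 ± 32.8 in vehicle and 2417 ± 848 at the high dose (0.73 ± 0.18, adjusted p = 0.00204). Its spread at the high dose was wide, and the part of replicate 2, which stood apart, was not tested for this gene.

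**Figure D4:**
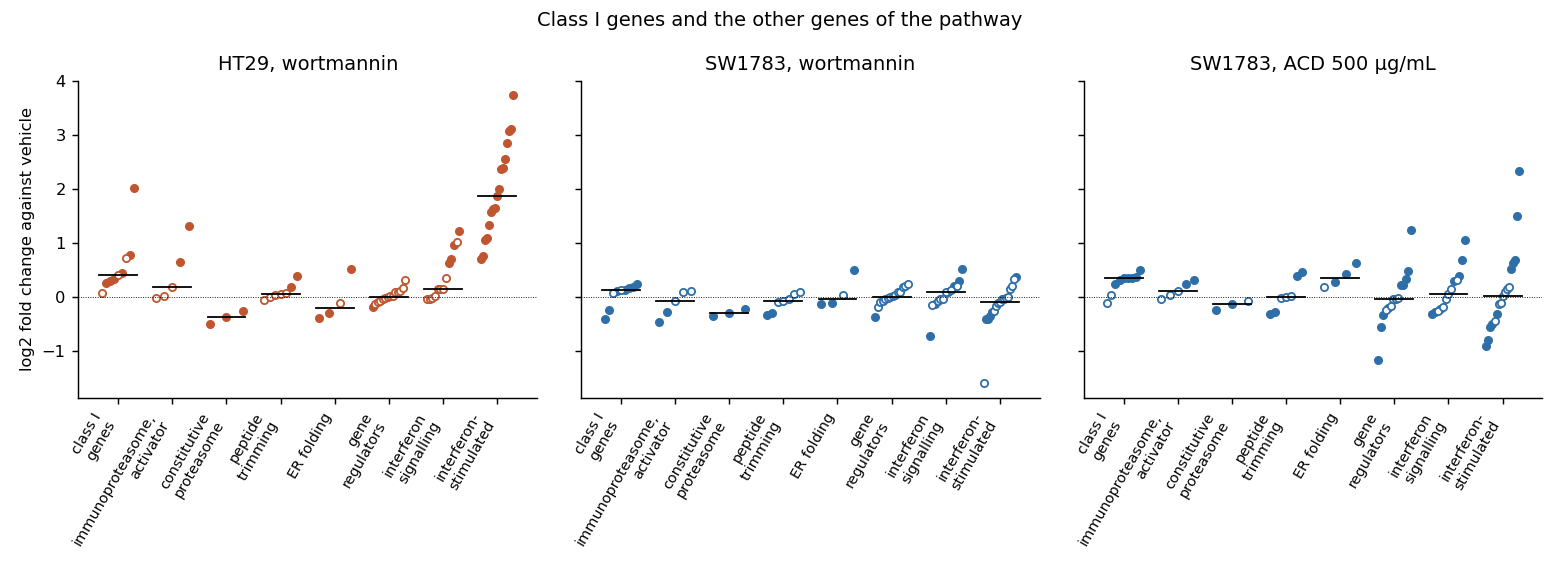
Log2 fold change of the 9 class I genes and of the genes of 7 other lists in HT29 with wortmannin, SW1783 with wortmannin and SW1783 at the high dose of ACD, with filled points for an adjusted p under 0.05, open points for the others and a line at each list's median. In HT29 with wortmannin the 17 interferon-stimulated genes have a median of 1.88 and the class I genes of 0.40, and in SW1783 at the high dose the class I genes have a median of 0.34 and the interferon-stimulated genes of 0.01.

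The genes whose pattern was most like that of TAP1 were found by Pearson's r over the 18 libraries of a line, on log2(normalized count + 1), among genes that averaged at least 100 normalized counts. The values are descriptions, since the libraries of a group share their treatment. In HT29 (10917 genes) the 5 nearest were IFI44 (r = 0.958), PARP10 (0.957), PARP12 (0.944), IFITM3 (0.935) and OAS1 (0.933), while HLA-E ranked 49 (0.856), HLA-C 261 (0.703), TAP2 566 (0.597), TAPBP 580 (0.591) and B2M 4118 (0.0756). HLA-B, HLA-F and NLRC5 averaged fewer than 100 normalized counts in HT29 and were not ranked there. In SW1783 (11378 genes) the nearest were FLII (0.988), IFRD1 (0.985), ETS2 (0.985), XPO6 (0.983) and TRIM16 (0.983). TAP2 was at rank 392 (0.918), HLA-F at 3147 (0.656), HLA-E at 3581 (0.593) and HLA-B at 3941 (0.538). B2M was at 4192 (0.489), HLA-C at 4660 (0.396), TAPBP at 6948 (-0.196) and NLRC5 at 9979 (-0.798). Of the 17 listed interferon-stimulated genes, 2 (IFI44 and OAS1) were among the 5 nearest in HT29 and 0 in SW1783.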

How the data were processed

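The authors sequenced strand-marked mRNA libraries from both read ends on an MGI platform and, per the submitters' processing notes, used FastQC 0.11.9, Trim Galore 0.6.5, STAR 2.7.3a and RSEM 1.3.3 with GRCh38. The deposited table holds expected counts per gene and library, as RSEM estimates them, without normalization, and 8.837% of the values were not whole. RSEM divides reads shared by similar genes with a model. Expected counts were rounded here. Of the 60675 genes, 56558 had a symbol, and a gene entered a fit if any library of that fit had a count above 0.

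Tests were two-sided DESeq2 1.42.0 Wald tests in R 4.3.3 with default settings. Benjamini-Hochberg adjustment covered the genes of a comparison that the default filter for low counts left in. Genes tested are those with an adjusted p, and their number differed between comparisons. It ran from 9324 at the low dose in SW1783 to 24231 between the batch B vehicles of the lines. A DEG had an adjusted p under 0.05 and a log2 fold change beyond 0.585 in size (1.5-fold). Fits held the 12 batch B or the 6 batch A libraries of a line, the 24 or 12 of both lines for interactions, and the 6 vehicles of a batch for the comparison of lines. Each treatment was set against the vehicle of its own batch. Values are normalized counts of replicates 1, 2 and 3, and log2 fold changes are given with SE. Levels per kilobase used the MANE transcript length. A count of 0 allows up to 3 counts, or 0.0886 to 0.188 CPM, for counting error only. Scripts were tested on simulated counts.

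The 9 genes and all lists, written from general knowledge, were chosen with earlier results of these data known. Every one of the 9 is named. Of other lists the 2 DEGs with the largest change and a mean normalized count of 100 or more are named per treatment, and exceptions are marked. A gene that this rule would name is not reported here. All 119 list genes were matched. Alternatives were edgeR 4.0.16, TMM size factors, a filter of 10 counts in 3 libraries, mitochondrial genes left out, only the groups compared, the replicate number as a block, no fold threshold, and each replicate left out.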

Additional observations from a re-analysis of the deposited data

Results flagged for a closer look

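Results are listed here because the response of SW1783 differed from that of HT29 in a test of the difference itself, the interaction of cell line and treatment in DESeq2 with adjusted p under 0.05. Values are differences in log2 response, SW1783 minus HT29. For wortmannin these were NLRC5 at -1.955, TAP1 at -1.041, TAP2 at -0.88, HLA-F at -0.6531, HLA-E at -0.1889 and TAPBP at -0.1566. For the high dose of ACD they were HLA-B at 0.5251, HLA-C at 0.2954, HLA-E at 0.3051 and TAP2 at -0.2075. For the medium dose they were NLRC5 at -0.9419 and TAP2 at -0.2753, and for the low dose TAP1 at -0.3343. TAP2 was the gene that appeared for 3 of the 4 treatments, each time lower in SW1783. With edgeR it did not pass at the high or medium dose (adjusted p = 0.32 and 0.25). In DESeq2, 27.6% and 11% of genes tested passed the interactions at these doses. The log2 fold change of TAP2 in SW1783 alone was 0.23 at the high dose, 0.12 at the medium dose and -0.41 with wortmannin. In HT29 it was 0.39, 0.37 and 0.45, so that the 2 lines moved apart in direction only with wortmannin. The doses of ACD share their vehicle groups, and the values at different doses are not independent. The interaction fits took a shared spread per gene from both lines, so their p-values can be too small where HT29 counts were low.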

How the results depend on the processing

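Without the fold threshold, the number of the 9 genes passing was 1 at the high and medium dose and 6 with wortmannin in HT29, and 7, 4 and 1 at the high, medium and low dose, 6 and 2 for the upper and lower dose step and 7 with wortmannin in SW1783. For the interactions it was 4, 2 and 1 at the high, medium and low dose. The shares of all genes given above are those of the main DESeq2 fits. No such share stands beside the counts under the alternatives that follow, which show only how calls of the 9 genes moved. With edgeR, the number passing at any size was 0 at the medium dose in HT29 and 1, 1 and 0 in the interactions at the high, medium and low dose. It was 8 with wortmannin in HT29 and 4 in the wortmannin interaction, against 6 each with DESeq2. In the low-dose interaction it was also 0 with TMM size factors or the low-count filter and 2 with only the groups compared, which gave 2 in the high-dose interaction. Replicate numbers were not found to pair the samples, since the correlations of same-numbered deviations ran from -0.461 to 0.326 in batch B of HT29, -0.055 to 0.154 in batch A, and -0.118 to 0.221 and 0.011 to 0.053 in batches B and A of SW1783. With the replicate block, 1 gene was a DEG with wortmannin in HT29, because NLRC5 (log2 fold change 2.08) received no adjusted p, and 2 and 3 genes passed at any size in the high-dose and wortmannin interactions.

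With a replicate left out, the counts ranged as follows. In HT29 they ran from 1 to 2 (high dose, any size), 1 to 2 (wortmannin, DEG) and 4 to 7 (wortmannin, any size). The lower DEG count came without wortmannin replicate 1, where NLRC5 again received no adjusted p (2.07). In SW1783 they ran from 3 to 5 (medium dose, any size) and 0 to 1 (low dose, any size). In the interactions they ran from 0 to 1 (high dose, DEG), 1 to 5 (high dose, any size), 0 to 1 (low dose, any size), 3 to 4 (wortmannin, DEG) and 3 to 7 (wortmannin, any size). Between vehicles they ran from 8 to 9 in each batch. The other counts for treatments against vehicle and for interactions did not move. In the upper dose step of SW1783 TAP2 lost the call at any size without high-dose replicate 1 (adjusted p = 0.0587). In the lower step B2M gained it without medium-dose replicate 1 or low-dose replicate 3 (adjusted p = 0.0495 and 0.00308), and HLA-E without medium-dose replicate 3 (0.0217). Without HT29 high-dose replicate 3 only 1 gene passed the high-dose interaction, and without SW1783 wortmannin replicate 3 only 3 passed the wortmannin interaction. Over the 162 single-gene results, 2015 alternative values kept the side of the threshold, 65 lost and 19 gained the call, and 0 values that had passed reversed. Among values that had not passed, B2M at the high dose in HT29 changed sign without replicate 2 of that dose (-0.06). Precision is limited in HT29 for NLRC5, HLA-F and HLA-B, whose counts were low.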

Other observations

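Of 9 MHC class II genes HLA-DMB, which helps load peptides onto class II molecules, was the only DEG with the extract, and it is named after its values were seen because its counts are low. Only 3 of the 9 had an adjusted p at the medium or high dose in HT29, and 5 and 7 had in SW1783, so the others could not be called. DEGs made up 0.792% and 3.16% of genes tested at these doses in HT29, and 3.82% and 17.6% in SW1783. In HT29 it stood at 31.5 ± 5.82 normalized counts in vehicle (SD, n = 3), 12.9 ± 3.498 at the medium dose and 15.2 ± 0.237 at the high dose, with log2 fold changes of -1.25 ± 0.36 and -1.04 ± 0.36 (adjusted p = 0.0348 and 0.0486). In SW1783 it stood at 60.6 ± 3.36 in vehicle, 33.4 ± 5.51 at the medium dose and 30.3 ± 6.35 at the high dose, with changes of -0.85 ± 0.28 and -1.01 ± 0.28 (adjusted p = 0.0101 and 0.00102). With edgeR the high dose in HT29 did not pass (adjusted p = 0.0605). HLA-DMB overlaps a readthrough gene, ENSG00000248993, on the same strand, so its counts are uncertain. Wortmannin did not move it past the threshold in either line (0.33 ± 0.35 and 0.15 ± 0.23, adjusted p = 0.578 and 0.676).

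Of the 8 interferon genes looked at, most had too few counts for an adjusted p, and IFNE was the only one to pass in any treatment of SW1783. Its log2 fold change was -0.43 at the high dose and -0.41 at the medium dose of the extract (adjusted p = 0.0156 and 0.031) and 0.49 with wortmannin (adjusted p = 0.00107). It was named after its values were seen. IFNG, which encodes interferon gamma, had 0 counts in all 36 libraries, which allows up to 0.0886 to 0.188 CPM per library.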
